A study of Mus musculus with 43 samples.

Results

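The genes described here carry glucose into the cell, take it through the regulated steps of glycolysis, convert pyruvate to lactate or back, and move lactate across the cell membrane. They were taken by name: the glucose transporter Slc2a1, the hexokinases Hk1 and Hk2, the phosphofructokinase subunits Pfkm and Pfkp, Gapdh, the lactate dehydrogenase subunits Ldha and Ldhb, and the monocarboxylate transporters Slc16a1 and Slc16a3. All 10 had a row among the 55416 genes counted in each of 43 libraries. RNA was sequenced from oligodendrocytes, oligodendrocyte precursor cells (OPCs), astrocytes and microglia, which a series of antibody-coated plates had captured from the cerebral cortex of 3-month-old mice. The mice came from a single colony founded by crossing Rag2-/- animals with C57BL/6J. Rag2-/- mice lack mature T and B cells, because Rag2 is needed to assemble their antigen receptors, and the loss is present in every cell from birth. Controls were immunocompetent littermates, labelled Rag2 +/- in pairs 1, 2, 3 and 5 and Rag2 +/+ in pairs 4 and 6. Astrocytes and microglia each came from 6 control and 6 Rag2-/- mice, OPCs from 6 and 5, and oligodendrocytes from 4 and 4 (pairs 1, 3, 5 and 6). Males and females entered both genotypes. In pair 6 the control was male and the Rag2-/- mouse female.

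Astrocytes take up glucose mainly through GLUT1, the product of Slc2a1, which is also the main glucose carrier of brain endothelial cells. A hexokinase then traps it as glucose 6-phosphate and phosphofructokinase commits it to glycolysis, while lactate dehydrogenase interconverts pyruvate and lactate. The monocarboxylate transporters MCT1 (Slc16a1) and MCT4 (Slc16a3) carry lactate over the membrane, and exchange of lactate between glia and axons has been studied most in astrocytes and oligodendrocytes.

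Between 6499417 and 23118497 read pairs were counted on genes per library, with a median of 10447042. Transcripts of the mitochondrial genome took 45.8% to 60.1% of these counts in oligodendrocytes, 22.5% to 45.1% in astrocytes, 22.4% to 36.7% in OPCs and 6.75% to 11.7% in microglia. All libraries of a cell type shared 1 sequencing lane, so lanes and cell types cannot be told apart. Each cell type was highest in its own summed markers, but other markers were present. Summed astrocyte markers ran from 1157 to 3219 CPM in oligodendrocytes and from 1903 to 5166 CPM in OPCs, against 15541 to 19595 CPM in astrocytes. In astrocytes, summed oligodendrocyte markers ran from 3307 to 6211 CPM, against 26268 to 35500 CPM in oligodendrocytes. Summed OPC markers ran from 1158 to 1560 CPM in astrocytes, against 5016 to 6630 CPM in OPCs. Summed neuronal markers reached 3105 CPM in oligodendrocytes and 679 CPM in OPCs. The targeted gene was too low to test the labels: Rag2 had counts in 3 of 22 control libraries and in none of 21 Rag2-/- libraries. Its neighbour Iftap had at least 14 counts in every control library and at most 2 in any Rag2-/- library.

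Counts of 3 of the 10 genes were limited by copies of their sequence. The deposited counts leave out read pairs with more than 1 alignment, which made up 5.90% to 13.3% of read pairs. The mouse genome holds many processed pseudogenes of Gapdh, the enzyme that oxidizes glyceraldehyde 3-phosphate. In the genome (GRCm39), 343 near copies of its coding sequence lay outside the gene, and 100% of the 50-base windows of the coding sequence had at least 1 exact copy elsewhere. Along the whole canonical transcript the share was 85.6%, against 33.8% for Ldha and 28.5% for Ldhb. It was 0.912% for Pfkm, 0.0473% for Hk1, and 0% for Slc2a1, Hk2, Pfkp, Slc16a1 and Slc16a3. A pair of reads of 50 bases each can still be placed when only 1 of them is in a unique window.

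The stretches that follow show what a read of that length could and could not tell apart, written 5′ to 3′ in the direction of the gene. The first is the coding stretch of Gapdh, within 1 exon (chr6:125139861-125139910, GRCm39, minus strand), that most near copies held unchanged, 83 of 343. The second (chr6:125139600-125139649, minus strand) is the one held by fewest, 10 of 343. No letter is in capitals, since neither stretch told the gene from those copies.
Gapdh, most copies: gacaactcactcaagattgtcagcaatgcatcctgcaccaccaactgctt
Gapdh, fewest copies: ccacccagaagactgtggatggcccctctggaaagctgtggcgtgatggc

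Ldhb had 1 near copy, the processed pseudogene Ldhb-ps on chromosome 19, which matched its 1005 coding bases at 98.0% identity with 20 differences. The pair below is the coding stretch with most differences, 4, which are in capitals (Ldhb, chr6:142436277-142436326, minus strand; Ldhb-ps, chr19:21915585-21915634, plus strand; GRCm39). The third line is a coding stretch of Ldhb (chr6:142451175-142451224, minus strand) that both hold without a difference.
Ldhb, apart: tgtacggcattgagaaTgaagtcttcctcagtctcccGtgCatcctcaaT
Ldhb-ps, apart: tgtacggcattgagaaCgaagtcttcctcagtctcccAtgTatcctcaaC
Ldhb, shared: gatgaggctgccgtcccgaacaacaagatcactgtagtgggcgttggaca

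Counts also fell on the annotated rows at these copies. Over all libraries the 340 rows at Gapdh copies held 38903 counts and the gene itself 8549, so 82.0% of their sum lay outside the gene. The corresponding share was 24.8% for Ldhb, from 13616 counts on Ldhb-ps, and 10.1% for Ldha, from 28 rows. By cell type the share on Gapdh copy rows was 78.7% ± 3.37 (SD, n = 12) in astrocytes, 81.3% ± 3.83 (n = 12) in microglia, 84.8% ± 3.92 (n = 11) in OPCs and 88.2% ± 5.97 (n = 8) in oligodendrocytes. Gapdh was therefore measured from a small and uneven part of its transcript, and its level here is not comparable with that of other genes. Exons of other genes on the opposite strand overlapped 41.6% of the merged exon bases of Gapdh (with Iffo1) and 44.1% of those of Slc16a3 (with Ccdc57 and Csnk1d). For Pfkp the overlap was 11.1%, all on the opposite strand. Exons of other genes on either strand overlapped 20.8% of the bases of Pfkm, with 4.36% on the opposite strand. How strand was handled in counting is not given in the sources used here.

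**Figure D1:**
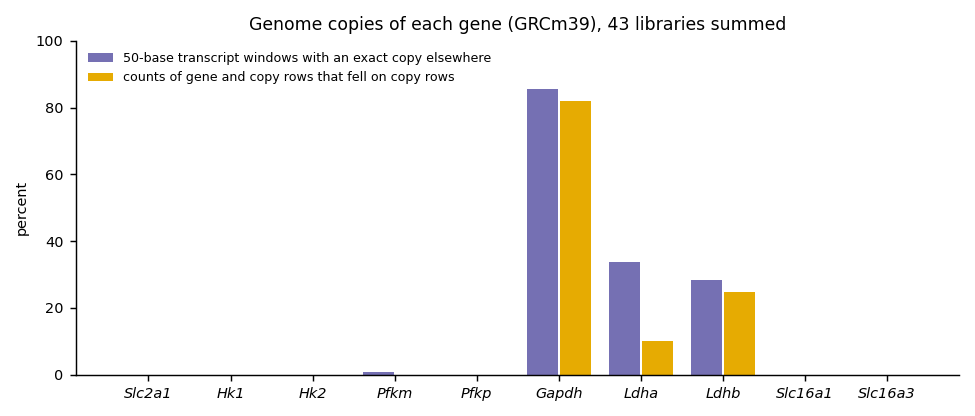
For each gene on the x axis, the bars give in percent the share of 50-base transcript windows with an exact copy elsewhere in the genome (purple) and the share of counts of the gene and its copy rows that fell on the copy rows (yellow), over 43 libraries. Gapdh stands at 85.6% and 82.0%, Ldha and Ldhb are lower, and the other genes are at or near 0.

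Levels below are CPM scaled by edgeR's TMM factors over all libraries (TMM CPM). Cell types were compared with edgeR's quasi-likelihood test on all 43 libraries, over 21368 genes past a filter on low counts, and a gene was called at a Benjamini-Hochberg adjusted p under 0.05 and a change of at least 2-fold. With fewer cells of a type and less RNA per cell not told apart in bulk samples, all levels are relative to the other RNA of the library. In the plot of levels by sample, no library of another cell type overlaps microglia for Hk2 or astrocytes for Pfkm and Ldhb. Microglia have the highest mean of Slc16a3, and astrocytes those of Pfkp and Gapdh, but oligodendrocyte libraries overlap each of them.

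**Figure D2:**
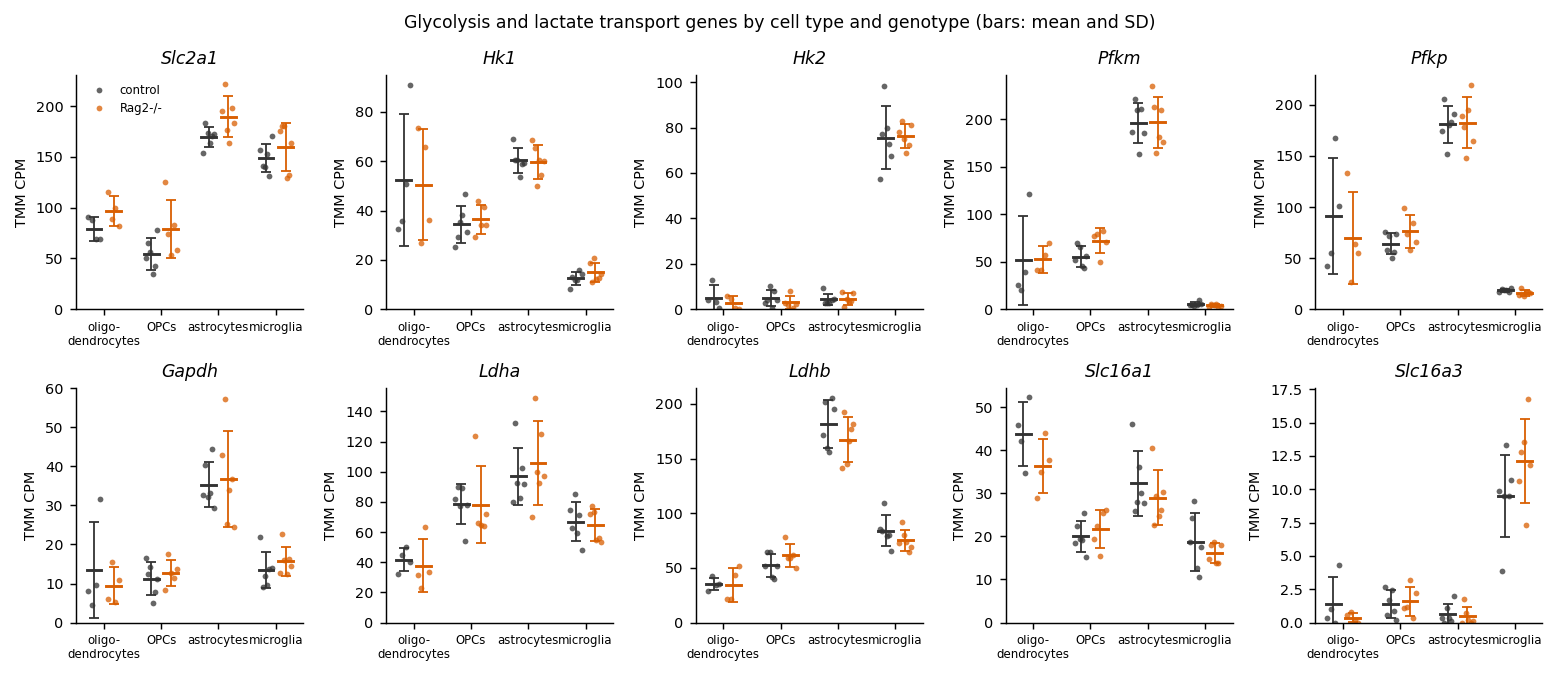
TMM CPM (y axis, linear, from 0, scaled per gene) of the 10 genes in each library by cell type (x axis), in control (black) and Rag2-/- (orange) mice, with group means and SD. Hk2 lies at 57.2 or above in every microglial library and at 12.9 or below in all others, and the genotypes overlap for all 10 genes in all 4 cell types.

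Slc2a1 (chr4:118965908-118996365, plus strand) was highest in astrocytes, at 180 ± 18.4 TMM CPM (SD, n = 12), followed by microglia at 154 ± 19.4 (n = 12), oligodendrocytes at 87.9 ± 15.5 (n = 8) and OPCs at 65.5 ± 24.7 (n = 11). Astrocytes and microglia did not differ past the threshold (log2 fold change 0.22 ± 0.11, SE, adjusted p = 0.0850). Both exceeded OPCs, by 2.75-fold for astrocytes (adjusted p = 2.5e-13) and 2.36-fold for microglia (adjusted p = 4.0e-12). Oligodendrocytes were 1.34-fold above OPCs, short of a 2-fold change, and the ranges of these groups overlapped. With libraries scaled by total gene counts the difference between oligodendrocytes and OPCs turned from a log2 fold change of 0.42 to -0.62, and that between astrocytes and microglia from 0.22 to -0.04.

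The hexokinases divided the cell types. Hk2 (chr6:82699740-82751469, minus strand), the hexokinase of insulin-responsive and of strongly glycolytic tissues, ranged from 57.2 to 98.4 TMM CPM over 12 microglial libraries with a median of 75.9. It stood at 0.767, 3.95 and 9.23 (lowest, median and highest) in astrocytes, at 0.413, 2.72 and 10.3 in OPCs, and in oligodendrocytes at 4.24, 12.9, 3.03 and 0.460 in controls and 5.90, 4.73, 0.629 and 0 in Rag2-/- mice. No library of the other cell types came near the lowest microglial one. Hk2 was 17.6-fold higher in microglia than in astrocytes, 19.9-fold higher than in OPCs and 20.99-fold higher than in oligodendrocytes (adjusted p = 2.3e-11, 2.7e-11 and 1.1e-09), and the 3 lower cell types did not differ from each other past the threshold. In the order oligodendrocytes, OPCs and astrocytes, Hk2 was at 5.25%, 5.36% and 5.81% of its microglial mean, and the summed microglial markers were at 7.22%, 4.34% and 1.68% of theirs.

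Hk1 (chr10:62104621-62215687, minus strand), the mitochondria-bound hexokinase typical of brain, was lowest in microglia. It stood there at 13.8 ± 3.41 TMM CPM (n = 12), against 60.0 ± 5.72 in astrocytes, 51.5 ± 22.9 in oligodendrocytes and 35.3 ± 6.61 in OPCs. Its fold over microglia was 4.36 in astrocytes, 3.74 in oligodendrocytes and 2.57 in OPCs (adjusted p = 2.2e-15, 6.2e-13 and 6.8e-10). The ranges of oligodendrocytes and astrocytes overlapped, and the difference between them did not pass the test (adjusted p = 0.297). Under scaling by total gene counts the order of oligodendrocytes and OPCs turned for Hk1 (log2 fold change 0.54 to -0.53) and for Pfkp (0.18 to -0.90).

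Phosphofructokinase is a tetramer of muscle (Pfkm), platelet (Pfkp) and liver (Pfkl) type subunits. Pfkm (chr15:97990451-98031417, plus strand) was lowest in microglia, where it ranged from 1.72 to 9.43 TMM CPM with a median of 4.44, and highest in astrocytes, from 163 to 235 with a median of 198. That is a difference of 43.1-fold (adjusted p = 2.5e-23), the widest among these genes in any pair of cell types. OPCs ran from 42.98 to 82.6, and the 8 oligodendrocyte libraries from 20.3 to 121, so these overlapped and were not told apart (adjusted p = 0.317). Pfkp (chr13:6629798-6698970, minus strand) had the same order at its ends, with 17.4 ± 2.45 in microglia and 182 ± 20.7 in astrocytes, 10.5-fold apart (adjusted p = 5.6e-20). OPCs and oligodendrocytes lay between, at 69.7 ± 14.1 and 80.5 ± 48.9.

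The spread of these genes in oligodendrocytes was wide, with a coefficient of variation of 61.8% for Pfkm, 60.8% for Pfkp, 44.6% for Hk1 and 77.4% for Gapdh, against 11.8%, 11.4%, 9.53% and 25.3% in astrocytes. Pfkm was at 25.5, 20.3, 39.2 and 121 TMM CPM in the controls of pairs 1, 3, 5 and 6, and at 41.1, 41.3, 56.9 and 70.1 in their Rag2-/- littermates. The control of pair 6 was also the highest oligodendrocyte library in Hk1 (91.0) and Gapdh (31.6), and in the summed markers of astrocytes (3219), neurons (3105), endothelial (47.0) and mural cells (123). Over the 8 libraries, log2 Pfkm and the log2 of the summed astrocyte markers had Pearson's r = 0.89 (exact permutation p = 0.00355, adjusted over 14 such relations 0.0497) and Spearman's rho = 0.71 (exact p = 0.0576, adjusted 0.187). Without the 2 libraries farthest from the median, r was 0.59. For Hk1 with the same markers r was 0.84 (exact p = 0.00761, adjusted 0.0533). These 14 relations were chosen after the values were seen, no other one passed an adjusted p of 0.05, and the groups were too small to repeat them within genotypes. The part of astrocyte or neuronal RNA in the oligodendrocyte levels was not tested.

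Gapdh (chr6:125135289-125143518, minus strand) was at 36.1 ± 9.14 TMM CPM in astrocytes, 14.6 ± 4.18 in microglia, 11.9 ± 3.73 in OPCs and 11.4 ± 8.86 in oligodendrocytes. Astrocytes were above the others by 2.48-fold to 3.17-fold (largest adjusted p = 2.8e-06), and no other pair passed the test. The summed rows at its copies were also highest in astrocytes, at 132 ± 18.6 TMM CPM, against 80.1 ± 17.8 in oligodendrocytes, 66.0 ± 8.76 in OPCs and 62.8 ± 6.73 in microglia.

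Lactate dehydrogenase subunits differed in where they were high. Ldhb (chr6:142435672-142454586, minus strand), the heart-type subunit, ranged from 142 to 205 TMM CPM in astrocytes with a median of 174 and from 64.8 to 109 in microglia with a median of 79.9. OPCs followed with 40.2 to 78.5, and oligodendrocytes were lowest with 29.0, 42.2, 33.9 and 35.1 in controls and 21.2, 21.6, 43.4 and 51.5 in Rag2-/- mice. No astrocyte library overlapped any other cell type. Astrocytes were 2.18-fold above microglia, 3.04-fold above OPCs and 5.02-fold above oligodendrocytes (adjusted p = 3.2e-11, 3.3e-14 and 4.2e-17). Ldha (chr7:46490899-46505061, plus strand), the muscle-type subunit, was spread less, at 101 ± 23.1 in astrocytes, 78.3 ± 18.7 in OPCs, 65.6 ± 11.4 in microglia and 39.8 ± 12.7 in oligodendrocytes. Only oligodendrocytes stood at a 2-fold distance for Ldha, 2.54-fold below astrocytes (adjusted p = 3.4e-09) and 2.00-fold below OPCs (adjusted p = 3.2e-06). The distance from OPCs fell under 2-fold in 9 of 20 alternatives, among them DESeq2 (log2 fold change -0.92) and controls alone (-0.87).

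The transporters of lactate formed a second contrast. Slc16a1 (chr3:104545811-104565780, plus strand) was highest in oligodendrocytes, at 40.1 ± 7.49 TMM CPM, then 30.6 ± 6.90 in astrocytes, 20.8 ± 3.85 in OPCs and 17.4 ± 4.93 in microglia. Oligodendrocytes exceeded microglia by 2.30-fold (adjusted p = 7.6e-09), but with libraries scaled by total gene counts this fell to a log2 fold change of 0.28 (adjusted p = 0.103). The order of oligodendrocytes over OPCs (log2 fold change 0.93) and over astrocytes (0.38) turned to -0.11 and -0.25 under that scaling, which counts the mitochondrial transcripts in full. Slc16a3 (chr11:120838846-120851694, plus strand) had 39 to 243 counts in microglial libraries and 0 to 59 elsewhere. In TMM CPM it ranged from 3.90 to 16.7 in microglia, with a median of 10.7, while its median was 1.19 in OPCs, 0.455 in oligodendrocytes and 0.293 in astrocytes. It was higher in microglia by 19.5-fold over astrocytes, 16.3-fold over oligodendrocytes and 7.44-fold over OPCs (adjusted p = 1.5e-08, 2.3e-06 and 1.0e-05). OPCs were above astrocytes at an adjusted p of 0.0382, a call that 14 of 20 alternatives did not keep. The control of pair 6 was again the highest oligodendrocyte library, at 4.29 TMM CPM, and overlapped the microglial range.

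Hk2 and Slc16a3 were the pair of genes with their highest level in microglia, and the 250 bases before their start of transcription are shown for that reason (RefSeq, build GRCm38.p6). Capitals mark ACGTG or its reverse complement CACGT, the core letters of the element that hypoxia-inducible factors bind; where both overlap in CACGTG they were counted as 1. It occurred in 16.6% of 32851 promoters of this length and in 7 of the 15 promoters of the 10 genes, which belong to 6 genes (Slc16a1, Slc2a1, Hk2, Ldha, Slc16a3 and Pfkm). GAGGAA or TTCCTC, core letters bound by the myeloid factor PU.1, occurred in 23.3% of promoters and in neither of these. A match is a description of letters only. The first is chr6:82774455-82774704 (minus strand) and the second chr11:120948817-120949066 (plus strand).
Hk2: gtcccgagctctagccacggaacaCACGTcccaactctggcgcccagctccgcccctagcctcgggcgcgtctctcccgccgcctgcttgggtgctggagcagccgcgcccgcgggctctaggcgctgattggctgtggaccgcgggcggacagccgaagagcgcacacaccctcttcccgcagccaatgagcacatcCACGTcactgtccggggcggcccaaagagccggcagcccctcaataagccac
Slc16a3: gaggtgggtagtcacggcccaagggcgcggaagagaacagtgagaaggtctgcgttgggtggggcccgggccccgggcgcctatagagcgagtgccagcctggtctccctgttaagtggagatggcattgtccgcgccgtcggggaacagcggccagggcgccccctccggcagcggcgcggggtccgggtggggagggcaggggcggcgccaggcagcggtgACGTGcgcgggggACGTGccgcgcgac

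By pairs of cell types, calls among the 10 genes were set beside the share of all genes called in that direction. Astrocytes against microglia gave 5 genes higher (all genes, 30%) and 2 lower (26.1%), with a median log2 fold change of 0.97 over the 10 genes and 0.09 over all genes. Oligodendrocytes against astrocytes gave 0 higher (18.8%) and 6 lower (18.1%), with medians of -1.12 and -0.01. OPCs against astrocytes gave 1 higher (17.3%) and 5 lower (11.3%), with medians of -1.06 and 0.14. In both comparisons the genes called were mostly higher in astrocytes. Oligodendrocytes against microglia gave 4 higher (28.1%) and 3 lower (27.5%), and OPCs against microglia 3 higher (32.4%) and 3 lower (23.3%). Oligodendrocytes against OPCs gave 0 higher (10.2%) and 1 lower (17.5%), which was Ldha at a log2 fold change of -1.003, at the edge of the 2-fold limit. The pairs share libraries, so their counts are not independent. Scaling by total gene counts moved the median of all genes to -1.25 between oligodendrocytes and OPCs, from -0.24, and then 5 of the 10 genes were called lower in oligodendrocytes. DESeq2 size factors gave 1 higher and 0 lower there. Between oligodendrocytes and microglia, total gene counts moved the median of all genes from -0.09 to -0.98 and the calls to 2 higher and 6 lower. Between OPCs and astrocytes, DESeq2 size factors gave 0 higher and 5 lower.

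**Figure D3:**
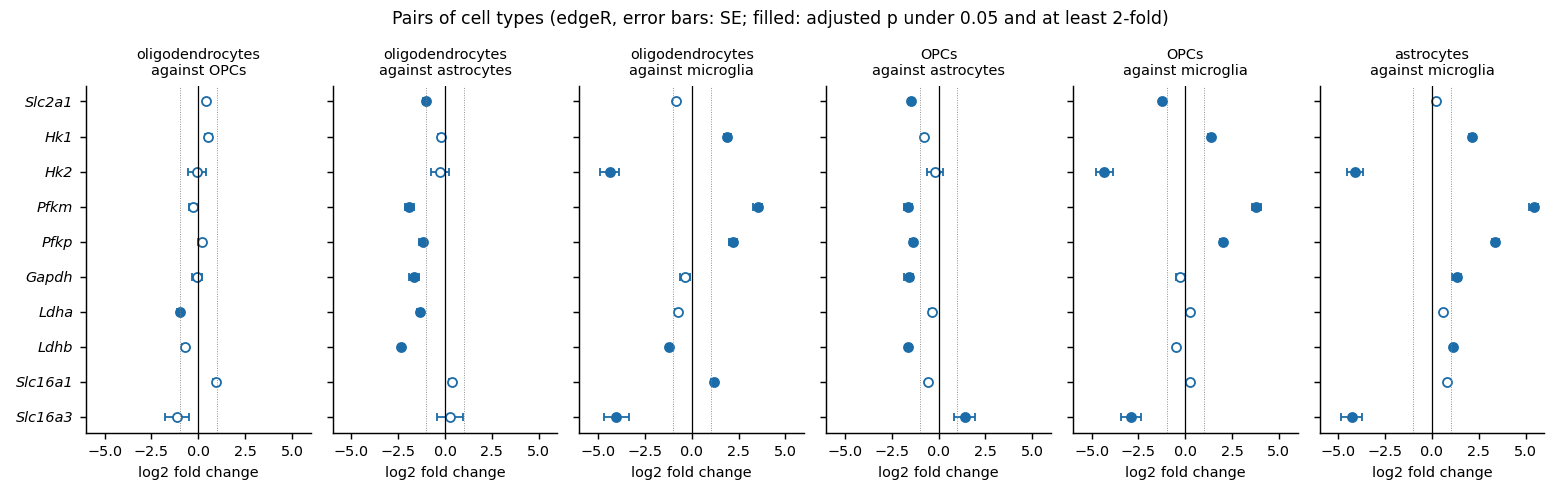
Log2 fold changes (x axis) of the 10 genes (y axis) between each pair of cell types from edgeR, with SE; positive values are higher in the cell type named first, dotted lines mark 2-fold and filled points were called. Hk2 and Slc16a3 lie to the left in the 3 comparisons with microglia, and Pfkm reaches 5.43 between astrocytes and microglia.

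Levels were compared between genes per kilobase of merged exons, and the order depended on the length used. In microglia the order began with Slc2a1 at 32.9 ± 4.15 TMM CPM per kilobase, Ldhb at 17.7 ± 2.77, Ldha at 13.8 ± 2.40 and Hk2 at 9.18 ± 1.21, with Hk1 at 1.57 ± 0.389. In astrocytes Ldhb (38.8 ± 4.80) and Slc2a1 (38.3 ± 3.93) lay within their SD of each other, followed by Pfkm at 21.9 ± 2.59 and Ldha at 21.4 ± 4.87, and Hk2 was at 0.533 ± 0.298. Oligodendrocytes were led by Slc2a1 (18.7 ± 3.31), then Ldha (8.40 ± 2.68), Ldhb (7.73 ± 2.38) and Slc16a1 (7.58 ± 1.42), the last 3 within their SD of each other. OPCs were led by Ldha (16.5 ± 3.95), Slc2a1 (13.97 ± 5.27) and Ldhb (12.6 ± 2.48), again within their SD. Per kilobase of the canonical transcript, Slc2a1 led in no cell type. Ldhb then stood above it in microglia (52.1 ± 8.16 against 34.7 ± 4.38) and in astrocytes (114 ± 14.1 against 40.4 ± 4.14). In oligodendrocytes Ldha (25.05 ± 7.99) and Ldhb (22.7 ± 6.99) were above Slc2a1 (19.8 ± 3.50), all within their SD, and in OPCs Ldha (49.3 ± 11.8) and Ldhb (36.97 ± 7.30) were above it (14.7 ± 5.56). Per kilobase without an exact copy elsewhere, Slc2a1 was in place 4 in microglia and oligodendrocytes and 6 in astrocytes and OPCs. Hk2 was above Hk1 in microglia and below it in the other cell types with all 3 lengths.

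Per kilobase of merged exons, Gapdh was in place 8 of 10 in astrocytes, OPCs and oligodendrocytes and 6 in microglia. Per kilobase of the canonical transcript it was in place 8 in oligodendrocytes, 6 in OPCs and astrocytes and 4 in microglia. Per kilobase of transcript without an exact copy elsewhere it was in place 1 or 2 in every cell type. Since pairs with only 1 unique read can be placed, that last length can overstate its level.

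Paired genes were also compared as shares of their summed counts within a library, which do not depend on library size. They are shares of counts, not of molecules, since the genes differ in length. Shares of the same mouse were compared between cell types with exact two-sided sign-flip permutation tests, with p-values adjusted over 24 tests, of which 16 passed 0.05. Hk2 made up 84.6% ± 3.24 (SD, n = 12) of the hexokinase pair in microglia, 10.0% ± 6.84 (n = 11) in OPCs, 8.45% ± 9.09 (n = 8) in oligodendrocytes and 6.68% ± 3.12 (n = 12) in astrocytes. It was higher in microglia in 12 of 12 mice against astrocytes and 11 of 11 against OPCs (exact permutation test, adjusted p = 0.00260 for both) and in 8 of 8 against oligodendrocytes (exact, adjusted p = 0.0156, from the smallest p that 8 mice allow, 0.00781).

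Pfkp made up 79.5% ± 6.64 of its pair with Pfkm in microglia, against 59.2% ± 16.2 in oligodendrocytes, 52.7% ± 4.31 in OPCs and 48.1% ± 3.14 in astrocytes. Although both genes were lowest in microglia, Pfkm was lower still, and the share was higher in microglia than in astrocytes in 12 of 12 mice (exact, adjusted p = 0.00260). Ldhb made up 63.5% ± 4.00 of its pair with Ldha in astrocytes, 54.9% ± 2.39 in microglia, 46.6% ± 6.75 in oligodendrocytes and 42.2% ± 5.05 in OPCs. The share was higher in astrocytes than in microglia in 12 of 12 mice, by 8.63 percentage points (exact, adjusted p = 0.00260), and higher than in OPCs by 21.8 points in 11 of 11 (adjusted p = 0.00260, exact). With the rows at genome copies added, it was 67.5% in astrocytes, 59.6% in microglia, 49.0% in oligodendrocytes and 46.5% in OPCs, the same order. Slc16a3 made up 38.7% ± 11.1 of the transporter pair in microglia and 6.84% ± 5.06 in OPCs, 1.95% ± 2.58 in astrocytes and 1.89% ± 2.48 in oligodendrocytes. Here too the microglial share was above that of astrocytes in 12 of 12 mice (exact, adjusted p = 0.00260).

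**Figure D4:**
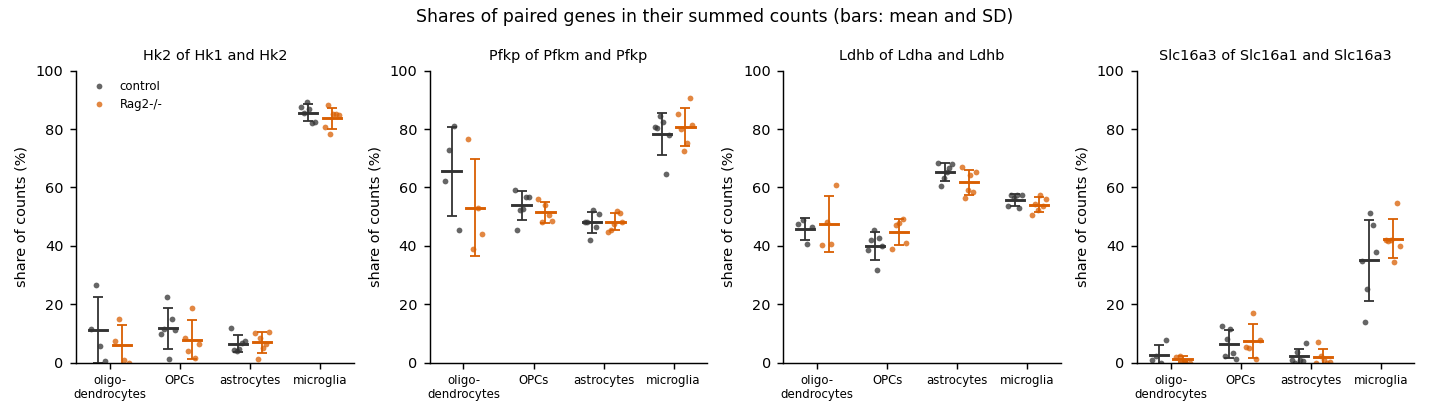
Share (y axis, percent of the summed counts of a pair of genes) of Hk2, Pfkp, Ldhb and Slc16a3 in each library by cell type (x axis), in control (black) and Rag2-/- (orange) mice, with means and SD. Every microglial library lies above all others for Hk2, microglia have the highest mean but overlap oligodendrocytes for Pfkp and OPCs for Slc16a3, and for Ldhb the astrocyte mean, 63.5%, is the highest.

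Genotype was compared within each cell type, Rag2-/- against control with sex as a covariate, to ask whether these genes differ in mice without lymphocytes. No gene of the 10 passed an adjusted p of 0.05 in any cell type with edgeR, with DESeq2, or with any other alternative run, and at an unadjusted p under 0.05 there were 2, both in OPCs, where 679 of all 16882 genes tested passed the same limit. Over all genes tested the share called with edgeR was 0% in oligodendrocytes, 0.00667% in microglia, 0.00679% in astrocytes and 0.00592% in OPCs. DESeq2 called more of all genes in oligodendrocytes, and the count is given in the closing section. Slc16a3 was too low to be tested in oligodendrocytes and in astrocytes, which left 9 genes tested there. The p-values measure the spread between animals. The ranges of the 2 genotypes overlapped for every gene in every cell type, while over all genes they did not overlap for 2.17% in oligodendrocytes, 0.145% in microglia, 0.108% in astrocytes and 0.374% in OPCs. In astrocytes the 9 log2 fold changes lay between -0.17 and 0.13 with a median SE of 0.12, and in microglia the 10 lay between -0.43 and 0.38 with a median SE of 0.17. Oligodendrocytes ran from -1.16 to 0.32 with a median SE of 0.47. In simulated data 2 of 95 genes changed by 2-fold were called in oligodendrocytes, 39 of 98 in OPCs, 41 of 96 in astrocytes and 56 of 96 in microglia. Most changes of that size were therefore not detectable in oligodendrocytes, OPCs and astrocytes. The median over the genes tested was -0.35 in oligodendrocytes, -0.02 in microglia, -0.01 in astrocytes and 0.18 in OPCs, and over all genes it was within 0.01 of 0.

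In OPCs the lowest unadjusted p-values were those of Slc2a1 and Pfkm. Slc2a1 was at 34.5, 53.2 and 77.9 TMM CPM (lowest, median and highest) in 6 controls, and at 125, 74.2, 53.7, 83.1 and 58.3 in the Rag2-/- mice of pairs 1, 2, 3, 4 and 6. The Rag2-/- mice of pairs 1 and 4 lay above every control, and the other 3 lay within the range of the controls. The log2 fold change was 0.52 ± 0.23 (edgeR, adjusted p = 1.00), and the adjusted p ran from 0.0931 to 1.00 over the alternatives. Summed endothelial markers in the same Rag2-/- libraries were at 117, 79.8, 33.1, 88.6 and 53.1 CPM, and in controls from 26.8 to 68.1 with a median of 41.3. Pfkm ran from 42.98 to 69.8 in controls and was 77.3, 79.2, 49.7, 82.6 and 70.4 in Rag2-/- mice, 4 of 5 above every control, with a log2 fold change of 0.36 ± 0.16 (edgeR, adjusted p = 1.00). Summed astrocyte markers were at 5166, 3539, 2109, 3509 and 2725 CPM in these Rag2-/- libraries, against 1903 to 2641 in controls. The part of either marker list in these differences was not tested.

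The genotype effect did not differ between cell types past the threshold for any of the 10 genes (edgeR interaction test, lowest adjusted p = 0.677, for Ldhb), while 0.314% of all genes were called. Without the Rag2-/- mouse of pair 1, Pfkp was called in this test (adjusted p = 0.0237). Pfkp in oligodendrocytes was at 42.2, 54.6, 167 and 101 TMM CPM in the controls of pairs 1, 3, 5 and 6 and at 133, 26.2, 64.3 and 54.9 in their Rag2-/- littermates, so the Rag2-/- mouse of pair 1 was the highest of its group and the other 3 lay within the range of the controls or below it. None of the 4 shares passed the test by genotype in any cell type (exact permutation test over unpaired libraries, 16 tests, lowest p = 0.113 and lowest adjusted p = 0.779). Within littermate pairs the lowest p was that of the Ldhb share in astrocytes, 61.7% in Rag2-/- mice and 65.4% in controls, which was lower in the Rag2-/- mouse in 6 of 6 pairs (exact sign-flip permutation p = 0.0312, the smallest that 6 pairs allow, adjusted p = 0.400). In OPCs the Ldhb share was higher in the Rag2-/- mouse in 5 of 5 pairs, at 44.7% against 39.5% (exact permutation p = 0.0625, the smallest that 5 pairs allow, adjusted p = 0.400). The share tests held no sex term, and the mice of pair 6 differed in sex as well as genotype.

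**Figure D5:**
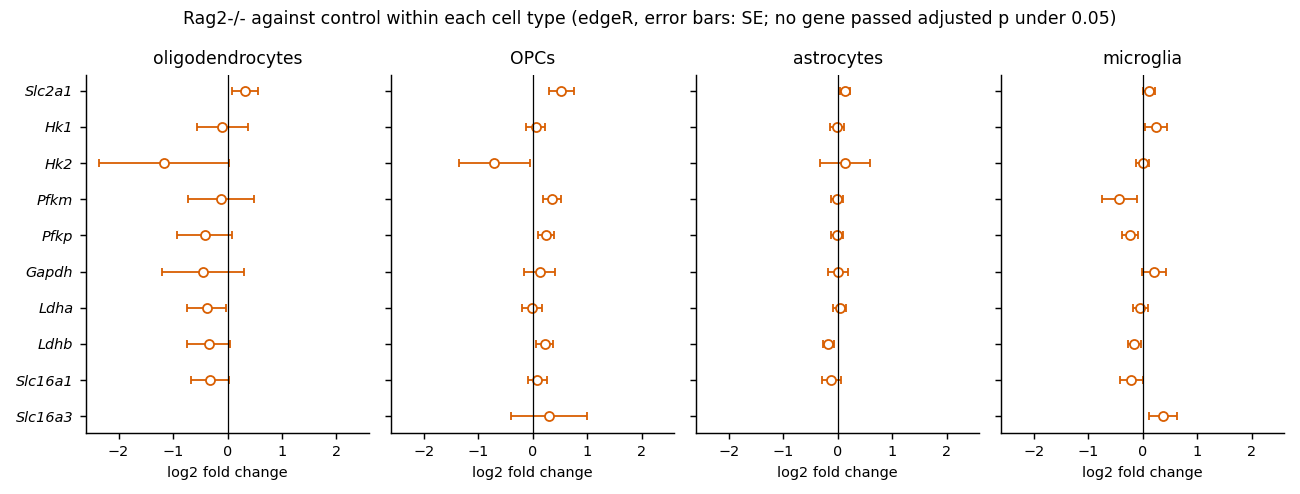
Log2 fold changes (x axis) of Rag2-/- over control for the 10 genes (y axis) in each cell type from edgeR, with SE; genes below the filter on low counts are not drawn. Points in astrocytes lie between -0.17 and 0.13, and oligodendrocytes have the widest error bars.

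Sex was compared in the same fits, female over male. No gene of the 10 passed an adjusted p of 0.05 in any cell type, where the share of all genes called was 0.0362% in oligodendrocytes, 0.0467% in microglia, 0.0407% in astrocytes and 0.0296% in OPCs. At an unadjusted p under 0.05 there were 2, the lactate dehydrogenase subunits in astrocytes, where 991 of all 14725 genes tested passed the same limit. Ldha was higher in females by a log2 fold change of 0.48 ± 0.12 (edgeR, adjusted p = 0.561) and Ldhb by 0.28 ± 0.10 (adjusted p = 0.715). Over the alternatives the adjusted p of Ldha in astrocytes ran from 0.0777 to 0.928. In oligodendrocytes the log2 fold changes were larger, 0.74 ± 0.36 for Ldha and 0.78 ± 0.40 for Ldhb (edgeR, unadjusted p = 0.0653 and 0.0751). They were -0.21 and -0.11 in OPCs and -0.04 and -0.02 in microglia. In oligodendrocyte data simulated for sex, 1 of 97 genes at log2 1 and 18 of 96 at log2 2 were called. Most changes of either size were thus not detectable there.

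Slc2a1 and Slc16a1 are both abundant in endothelial cells, so their levels were set beside the summed level of 8 endothelial markers (Cldn5, Pecam1, Flt1 and others) in each cell type. All 8 markers had counts in every cell type, though 2 of them were at 0 in the Rag2-/- oligodendrocytes, with summed levels of 4.09 to 47.0 CPM in oligodendrocytes, 24.98 to 60.1 in microglia, 9.03 to 48.2 in astrocytes and 26.8 to 117 in OPCs. In OPCs Slc2a1 rose with them, with Pearson's r = 0.91 (permutation p = 7.0e-05) and Spearman's rho = 0.95 (permutation p = 8.0e-05) over 11 libraries, adjusted over 8 relations to 5.6e-04 and 6.4e-04. Without the 2 libraries farthest from the median r was 0.85, and within the 6 controls alone it was 0.84 (exact permutation p = 0.0389, rho = 0.89); the 5 Rag2-/- libraries were too few to test. None of the other 7 relations passed the test, and the lowest adjusted p among them was 0.710. In astrocytes r was 0.00030 for Slc2a1 and 0.03 for Slc16a1. Summed mural cell markers also rose to 362 CPM in the OPC library with the highest Slc2a1, from 89.6 in the one with the lowest. Summed astrocyte markers were at 5166 CPM in the first of these libraries and at 2336 CPM in the second. Slc2a1 itself was higher in astrocytes than in OPCs. The part of endothelial, mural or astrocyte RNA in the Slc2a1 level of OPCs was not tested.

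Genes of the same pathway were taken from a list of 51, which holds the other glycolytic enzymes and isozymes, pyruvate and glucose carriers, pyruvate dehydrogenase and its kinases, glycogen enzymes and the hypoxia pathway. Of 46 tested between astrocytes and microglia, 20 were called higher (all genes, 30%) and 10 lower (26.1%) in astrocytes, with a median log2 fold change of 0.86. The astrocyte-high genes were led by Aldoc, the brain aldolase, at 3132 TMM CPM in astrocytes and 24.2 in microglia, and Pdk4, a kinase that restrains pyruvate dehydrogenase, at 88.1 and 0.769. The glycogen phosphorylases Pygb (501 and 33.0) and Pygm (54.8 and 1.85) and the hypoxia factor Epas1 (247 and 8.52) were on the same side. The microglia-high genes included Hk3, a myeloid hexokinase (59.0 in microglia and 0.560 in astrocytes), the fructose carrier Slc2a5 (110 and 1.14), Pfkfb3, which makes the activator of phosphofructokinase (413 and 52.4), and Hif1a (128 and 40.2). Hk3 and Slc2a5, like Hk2 and Slc16a3, were thus highest in microglia.

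Between oligodendrocytes and astrocytes, 7 of 46 were called higher in oligodendrocytes (all genes, 18.8%) and 23 lower (18.1%), with a median of -1.01. Between OPCs and astrocytes, 6 were higher in OPCs (17.3%) and 16 lower (11.3%), with a median of -0.66. Slc16a7, the transporter MCT2 known from neurons, was highest in oligodendrocytes at 44.2 TMM CPM, against 19.2 in microglia, 18.1 in OPCs and 6.37 in astrocytes, and the neuronal enolase Eno2 was highest there too, at 82.4. Summed neuronal markers were also highest in oligodendrocytes (623 to 3105 CPM), and their part in these levels was not tested. In the other pairs the list stayed near or below the share of all genes. Of 46 genes, oligodendrocytes against microglia gave 12 higher (28.1%) and 9 lower (27.5%), OPCs against microglia 15 (32.4%) and 7 (23.3%), and oligodendrocytes against OPCs 4 (10.2%) and 9 (17.5%). By genotype, by sex and in the interaction test 0 of the list were called in any cell type. Several rows of the list are undercounted as Gapdh is, with exact copies elsewhere for 93.6% of windows of Pgam1, 92.9% of Pgk1, 63.6% of Eno1 and 40.2% of Pkm.

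The genes most alike in pattern to each of the 10 were found by Pearson's correlation of log2(TMM CPM + 1) over the 43 libraries, among the 21368 genes past the filter, given here as a description. The libraries come from 4 cell types, so differences between cell types enter every value. Nearest to Pfkm were Slc1a2 (0.98), the glutamate transporter of astrocytes, Cpe (0.98) and Baalc (0.98), and nearest to Pfkp were an unnamed gene (0.97), Chchd10 (0.97) and Tst (0.96). For Hk2 they were Azin1 (0.95), Atp6v0c (0.95) and Capg (0.94), and for Slc16a3 Psmb8 (0.95), a subunit of the immunoproteasome, Mknk2 (0.93) and G3bp1 (0.93). Slc2a1 was most like Ston2 (0.92), Neat1 (0.91) and Tsc22d3 (0.88), and Hk1 most like Gabra4 (0.94), Cds2 (0.92) and Ogdhl (0.92). For Ldhb the nearest row was its own pseudogene Ldhb-ps (0.97), then Tlr3 (0.94) and Slc20a1 (0.94), and for Ldha it was Gm5452 (0.87), Slc26a6 (0.84) and Pttg1ip (0.84). The nearest to Gapdh were Akt2-ps (0.88), Akt2 (0.86) and Paqr7 (0.86), and those to Slc16a1 were Scd3 (0.85), Nkain2 (0.85) and Gm19500 (0.85). Among the 10 themselves, Pfkm and Pfkp were most alike (0.94), then Pfkm and Hk1 (0.90) and Pfkp and Hk1 (0.90), and Hk2 and Slc16a3 reached 0.80.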

How the data were processed

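RNA-seq was measured in 43 libraries of immunopanned mouse glia. The authors amplified cDNA, sequenced pairs of 50-base reads, aligned them with STAR 2.7.8a to GRCm39 (per the submitters' processing notes) and counted them per gene with HTSeq, and they deposited whole-number counts without normalization. Read pairs on no single gene (33.5% to 52.0% of a library) stayed out of library sizes and tests. Groups came from the labels. Gene models came from GENCODE M39, which held 54749 of the 55416 genes. Libraries of a group differed beyond counting error (smallest chi-square 7.45 per gene). Genes, lists and tests were chosen with earlier results of these data known.

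Levels are TMM CPM. Tests used edgeR 4.0.16 in R 4.3.3 (TMM, filterByExpr with a minimum count of 10 and a total of 15, quasi-likelihood, Benjamini-Hochberg over all genes tested), and DESeq2 1.42.0 as an alternative. Within a cell type the terms were genotype and sex. The joint fit for pairs of cell types used 8 groups and a common sex term. The interaction test used 8 groups and sex within cell type. Shares were compared with exact permutation tests and correlations (pseudocount 1) with permutation tests, of 100000 resamples from 10 libraries upward, in scipy 1.17.1 with Python 3.11.15. Near copies were found with blastn 2.17.0 (at least 80% identity over 100 bases). Genes were named if they were among the 10, on the pathway list, a cell type marker, among the 3 nearest in pattern, a row at a genome copy, or Rag2 and Iftap.

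Labels and study give littermate pairs, so numbers pair the samples. The mean correlation of deviations within pairs was 0.135 in astrocytes, 0.111 in oligodendrocytes, 0.0889 in OPCs and 0.0865 in microglia. The edgeR fits were tested on simulated data. For genotype in microglia, 87 of 93 genes simulated at log2 2 and 56 of 96 at log2 1 were called, among 14672 genes, and in oligodendrocytes 35 of 93 and 2 of 95, among 13055. Alternatives were other size factors, no filter, no mitochondrial genes, DESeq2, the pair or mouse as a block, no sex or genotype term, 1 genotype or heterozygous controls alone, added copy rows, other lengths (the canonical transcript was chosen after seeing the data) and each library or mouse left out.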

Additional observations from a re-analysis of the deposited data

Results flagged for a closer look

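In 80 groups of a gene, cell type and genotype, 4 had a library set far from the others by Dixon's test, which flags about 1 group in 20 by chance. In OPCs, Hk2 was 7.89 TMM CPM in the Rag2-/- mouse of pair 3, with the next at 2.72, and summed microglial markers were also highest in that library, at 1010 CPM. Ldha was 124 in the Rag2-/- mouse of pair 1, with the next at 72.2, in the library that was also highest in summed astrocyte (5166 CPM), endothelial (117 CPM) and mural (362 CPM) markers, and it was 54.0 in the control of pair 5, with the next at 77.3. In control astrocytes, Hk2 was 9.23 in the mouse of pair 1, with the next at 4.64, and summed erythrocyte markers were highest in the same library, at 397 CPM. Summed microglial markers in that library were at 139 CPM, inside the range of control astrocytes, 77.7 to 339 CPM. The part of RNA from other cells in these levels was not tested.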

How the results depend on the processing

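Between cell types, 1161 of 1200 gene values under alternatives kept their direction or their lack of a call, 27 lost a call, 12 gained one, and no called gene changed sign. With genes not called included, the log2 fold change turned sign in 32 of these 1200 values. It did so in 72 of 864 by genotype (interaction test included) and in 39 of 562 by sex. By genotype and sex the 10 genes had 0 calls under every alternative, except Pfkp in the interaction test without 1 mouse. Total gene counts raised the calls between oligodendrocytes and OPCs from 1 to 5 and those over all genes from 5913 to 12052. Ldha in that pair lost its 2-fold distance in 9 alternatives; without 1 mouse 0 to 2 genes were called there, 5 to 6 between OPCs and astrocytes, and 0 to 1 in the interaction test. Leaving out any 1 mouse kept 6 calls between oligodendrocytes and astrocytes, 7 between oligodendrocytes and microglia, 6 between OPCs and microglia and 7 between astrocytes and microglia. Without mitochondrially encoded genes 0 were called between oligodendrocytes and OPCs. Oligodendrocytes had the widest spread and the fewest libraries. In data simulated for genotype there, 2 of 95 genes at log2 1 and 35 of 93 at log2 2 were called, so large differences were mostly missed too.

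Over all genes, calls by genotype rose from 0 to 14 without the filter and 203 with DESeq2 in oligodendrocytes, from 1 to 90 and 5 in OPCs, from 1 to 30 in astrocytes without the filter, and from 1 to 9 and 3 in microglia. By sex they rose from 5 to 99 and 434 in oligodendrocytes, 5 to 72 and 13 in OPCs, 6 to 118 and 18 in astrocytes and 7 to 25 and 11 in microglia. In the interaction test 67 genes became 669 without the filter, 8 with the mouse as a replicate block, and 14 to 97 without 1 mouse. OPCs against astrocytes fell from 6105 to 3807 in Rag2-/- libraries alone. The causes were not tested. Leaving out a library gave 1 to 2 by genotype in microglia and 3 to 5 by sex in oligodendrocytes. With the replicate block no other count moved by over 1.5 times and no call of the 10 genes changed: 0 by genotype in each cell type, and 1, 6, 7, 6, 6 and 7 between cell types.

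Share tests passing 0.05 between cell types stayed at 16 with copy rows added and per unique window, and ran from 12 to 16 without 1 mouse; by genotype they stayed at 0. The place of Gapdh per length moved from 8, 8, 8 and 6 to 1, 2, 1 and 2 with unique windows, and to 8, 6, 6 and 4 with the canonical transcript.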
